A study of Mus musculus with 12 samples.

Results

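Fragments of tRNAs were compared between a low protein diet and a control diet in sperm of wild-type male mice. All libraries labelled wild-type were taken, 6 of the 12 libraries of the study: 3 on control diet (WT_CD) and 3 on low protein diet (WT_LPD). The males of both groups received their diet from 3 to 12 weeks of age. The cells were histone replacement-completed sperm (HRCS), that is, sperm that have finished exchanging histones for protamines. They were taken from the caudal epididymis and vas deferens, sonicated mildly so that heads and tails come apart, and then spun through 82% Percoll. The remaining 6 libraries came from ATF7+/- males, heterozygous for the gene of the transcription factor ATF7, on the same diets. They entered only the shared estimate of spread and 1 test of the difference between genotypes. The labels do not say whether libraries of a group came from separate animals or from pools, so p-values measure only the spread between these libraries. The table lists tRNA fragments alone, so the labelled cell type could not be checked against sperm or somatic marker transcripts.

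Transfer RNAs carry amino acids to the ribosome and pair with codons through the anticodon, which lies in a loop at tRNA bases 34 to 36. Cleavage in or near this loop gives 5′ fragments, often called tsRNAs, which are abundant in mature sperm and are known to be gained during passage through the epididymis. Paternal low protein diet is known from earlier work to alter them, and glycine fragments have drawn most attention. A fragment can also start after the first tRNA base, or, in tRNA-His, at an extra guanine before it, which is added to the RNA by an enzyme and is the mark read by histidyl-tRNA synthetase.

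The table holds 2971 unique sequences of 15 to 36 nt, of which 2950 are 27 nt or longer. Sequences were grouped by their bases into 19 tRNA families, and 12 of these could be named by an anticodon that a RefSeq nuclear tRNA gene carries. In the canonical numbering of tRNA bases used below, 2293 sequences start at base 1 and are called complete, 547 start later and are called trimmed, and 131 start earlier and are called extended. This numbering skips a position of the D loop where a tRNA lacks it, so a Gly-GCC fragment of 28 nt ends at base 29. Shown here is the most abundant complete fragment of 5 of the 6 largest families, each with its most abundant trimmed counterpart. Capitals mark tRNA bases 1 and 2, so a trimmed fragment that lacks base 1 has a single capital.
Gly-GCC, bases 1 to 29: GCattggtggttcagtggtagaattctc
Gly-GCC, bases 2 to 29: Cattggtggttcagtggtagaattctc
His-GTG, bases 1 to 30: GCcgtgatcgtatagtggttagtactctgc
His-GTG, bases 2 to 30: Ccgtgatcgtatagtggttagtactctgc
Glu-TTC, bases 1 to 29: TCccacatggtctagcggttaggattcct
Glu-TTC, bases 2 to 29: Cccacatggtctagcggttaggattcct
Lys-CTT, bases 1 to 31: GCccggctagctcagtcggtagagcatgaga
Lys-CTT, bases 2 to 31: Cccggctagctcagtcggtagagcatgaga
Val-CAC, bases 1 to 32: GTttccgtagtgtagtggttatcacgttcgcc
Val-CAC, bases 2 to 32: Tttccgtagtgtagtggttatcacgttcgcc

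In 2 of these 5 families the complete fragment was found letter for letter in the RefSeq promoter windows (GRCm38.p6), because the genes BC107364 and Gm46404 start beside a tRNA gene. The windows reach only a few tRNA genes, and the other copies were not used here. The gene sequence around each match is shown with the fragment in capitals, to place the fragment's first base.
n-THgtg7, a His-GTG gene at chr3:96452495-96452566, plus strand: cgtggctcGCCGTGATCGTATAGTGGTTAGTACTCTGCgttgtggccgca
n-TVcac9, a Val-CAC gene at chr13:23446142-23446214, minus strand: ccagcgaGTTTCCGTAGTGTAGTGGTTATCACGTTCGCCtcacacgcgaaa
Both fragments start at the first base of the annotated tRNA gene and end before its anticodon, so both lie wholly within it. The base before the histidine gene copy is C. The most abundant extended His-GTG fragment, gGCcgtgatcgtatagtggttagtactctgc, has a G there, which this gene copy does not encode.

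Levels are given in RPM, reads per 1000000 of the library total that the authors used. These totals were 2278880 to 3927919 reads in the wild-type libraries, and the table held 97.5 to 98.1% of them. A count of 0 in a wild-type library allows a level of up to 0.764 to 1.32 RPM, a bound on counting error alone, because libraries without molecular identifiers count copies of a molecule as separate reads. RPM is a relative level, and fewer sperm with a fragment and fewer copies per sperm cannot be told apart.

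The control-diet libraries did not form 1 group. Over all sequences, on the scale log2(RPM + 1), control-diet replicate 3 correlated with the low-protein libraries at Pearson's r of 0.968, 0.980 and 0.977, but with control-diet replicates 1 and 2 at 0.861 and 0.909. Replicates 1 and 2 correlated with each other at 0.948, and the low-protein libraries among themselves at 0.971 to 0.977. These are correlations across sequences, which are not independent replicates, and are given without a test. The variance between replicate pairs was 53.7 to 177 times that of counting on control diet and 8.54 to 14.4 times on low protein diet. Results are therefore given for each library, and without control-diet replicates 1 and 2 or without replicate 3 where that changes them.

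Of the 2971 sequences, 75 were called different between the diets (2.52%), 5 higher (0.168%) and 70 lower (2.36%) on low protein diet, by edgeR's quasi-likelihood test on all 12 libraries with Benjamini-Hochberg adjustment over all sequences. The 70 lower ones were 22 of 1098 Gly-GCC sequences, 21 of 219 of Glu-TTC and 15 of 833 of Glu-CTC. The rest were 6 of 185 of Val-CAC, 3 of 54 of Gly-TCC and 3 of 257 of His-GTG. Of the 547 trimmed sequences, 63 were called lower, beside 2.36% of all 2971. All 5 higher ones were Glu-CTC fragments of 33 nt. Adjusted p-values of the called sequences lay just under the threshold of 0.05, from 0.0486 to 0.0490, and 648 sequences had an unadjusted p under 0.05. No sequence was called when any one of control-diet replicates 1 or 2, the low-protein replicates, ATF7+/- control-diet replicates 1 or 2 or the ATF7+/- low-protein replicates was left out. By contrast, 577 were called without control-diet replicate 3, among them all 75, and 134 without ATF7+/- control-diet replicate 3.

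The groups did not overlap, with every low-protein library above every control one, in 251 sequences (8.45%), and every low-protein library below in 326 sequences (11%). Among the 70 called lower, 55 did not overlap and control-diet replicate 3 was the lowest control library in 69. Control-diet replicate 1 was the highest in 58 and replicate 2 in 12. The median log2 fold change of the 70 was −3.34 with all control libraries, −3.84 without control-diet replicate 3, and −0.89 with replicate 3 as the only control library, where 67 kept a negative sign. The 5 higher sequences had a median of 1.06, 1.15 and 0.90 under the same choices of control libraries and kept their sign in each.

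Trimmed fragments took a smaller share of the reads in every low-protein library than in every control library. In control-diet replicates 1, 2 and 3 they made up 15.7, 8.78 and 4.33% of the reads of the table, and in the low-protein libraries 3.16, 3.69 and 4.09%. The control libraries thus span a wide range, and the lowest of them stands just above the highest low-protein library. The means were 9.60 ± 5.73% and 3.65 ± 0.47% (SD, n = 3), a difference of −5.95 percentage points for which the exact two-sided permutation test gave p = 0.1, its lower limit with 3 libraries per diet. Without control-diet replicate 1 the difference was −2.90 points and without replicate 3 it was −8.59.

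Split by how many bases were missing, the difference stood in fragments that lack 1, 2 or 3 bases. Fragments that lack 1 base held 10.7, 6.22 and 2.98% of reads on control diet and 2.20, 2.66 and 2.90% on low protein diet. Fragments that lack 2 bases held 4.48, 2.25 and 1.03% against 0.711, 0.802 and 0.952%. Fragments that lack 3 bases held 0.497, 0.257 and 0.252% against 0.188, 0.176 and 0.192%. In each of these classes the groups did not overlap, again with control-diet replicate 3 nearest to the low-protein libraries (exact permutation p = 0.1 each). Fragments that lack 4 or more bases were rare, at 0.0566 ± 0.0071% and 0.0560 ± 0.0015% (SD, n = 3), and the groups overlapped.

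**Figure D1:**
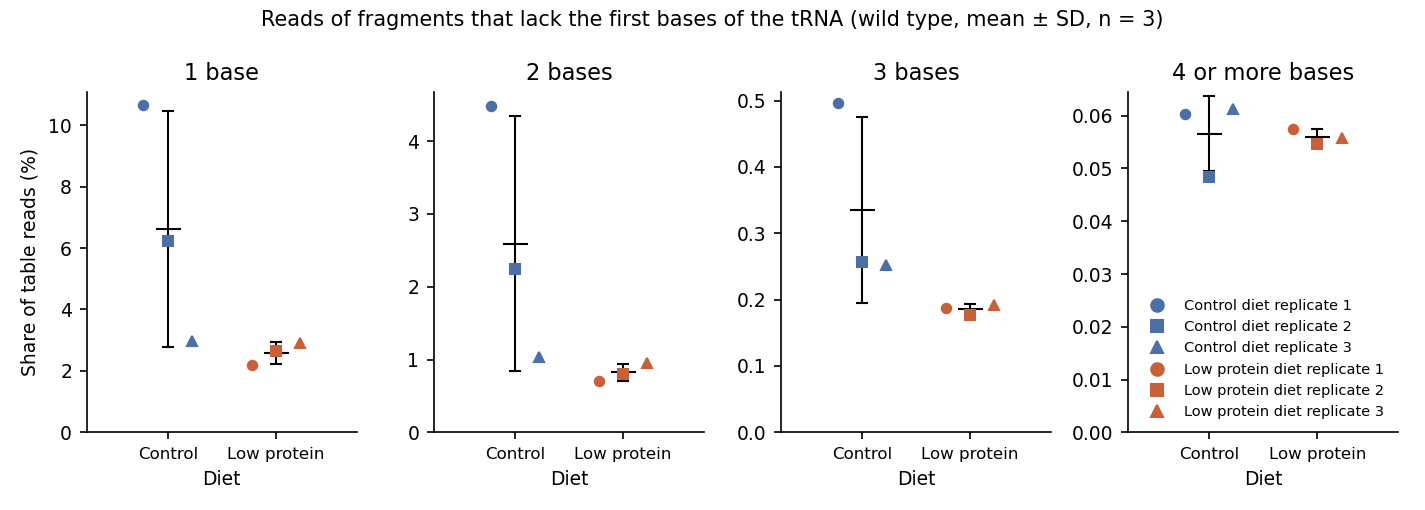
Share of the reads of the table (%, linear axes from 0) taken by fragments that lack 1, 2, 3, or 4 or more bases of the tRNA 5′ end, for each wild-type library, with the mean and SD of 3 libraries per diet. Control-diet replicate 1 is the highest in the first 3 panels, at 10.7, 4.48 and 0.497%, and in the last panel the diets overlap.

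The same order was seen over sequences. The median fitted log2 fold change of the 547 trimmed sequences was −1.67, beside −0.10 for all sequences and −0.01 for the complete ones, and 86.7% of the trimmed sequences were negative. It was −1.98 for sequences that lack 1 base (333 sequences, 42 called lower and 1 higher), −1.46 for 2 bases (131, of which 19 lower), −0.67 for 3 bases (53, of which 1 lower) and −0.01 for 4 or more (30, of which 1 lower). Of all 2971 sequences, 2.36% were called lower and 0.168% higher. With control-diet replicate 3 as the only control library the median of the trimmed sequences was −0.31, and without that replicate it was −2.03.

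**Figure D2:**
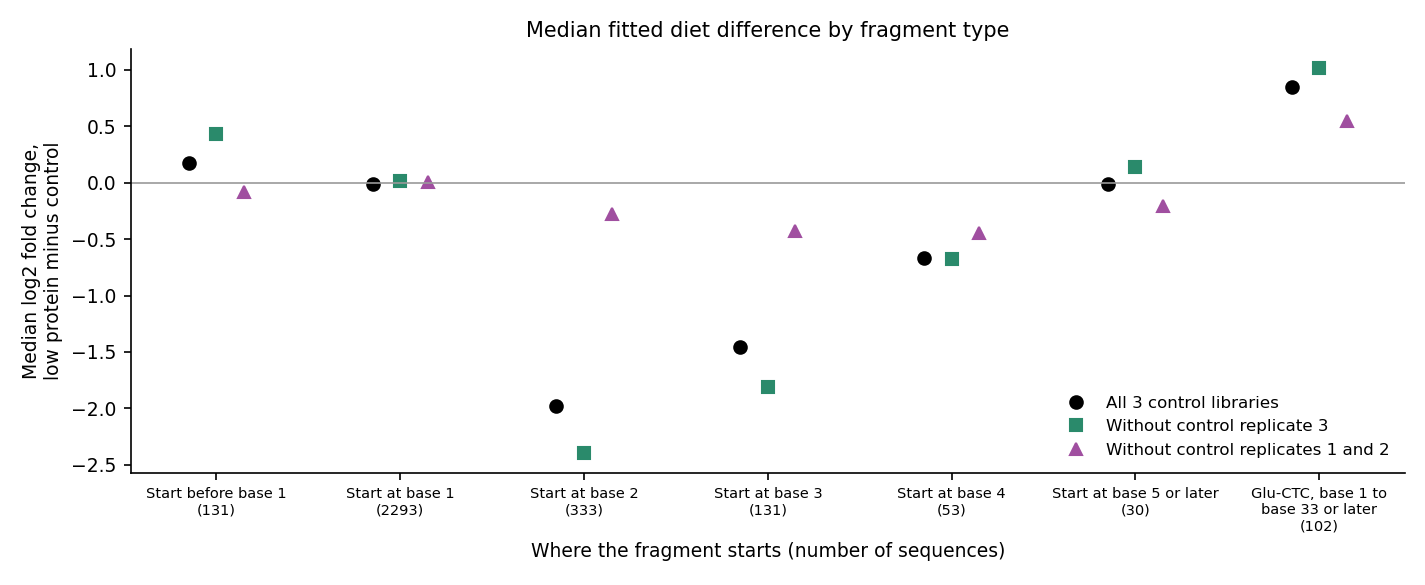
Median fitted log2 fold change (low protein minus control diet) of sequences grouped by the tRNA base at which they start, with the number of sequences in brackets and 3 choices of control libraries. Sequences that start at base 2 lie at −1.98 with all control libraries and at −0.28 with replicate 3 alone. The Glu-CTC group at the right, whose span was chosen after its values were seen, lies above 0 in all of them.

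The same order of libraries recurred in most families. The trimmed share of Glu-TTC reads was 19.4, 12.7 and 2.23% on control diet and 1.28, 1.75 and 2.42% on low protein diet. That of Val-CAC was 18.7, 8.57 and 3.52% against 1.85, 2.75 and 3.56%, and that of Lys-CTT 19.8, 7.38 and 5.19% against 3.57, 4.58 and 4.72%. Glu-CTC stood at 19.8, 13.7 and 5.41% against 4.45, 4.84 and 5.58%. In Glu-TTC, Val-CAC and Glu-CTC control-diet replicate 3 fell inside the low-protein range, and in Lys-CTT just above it. In Gly-GCC, the family of the glycine fragments, the groups did not overlap, with 9.60, 3.17 and 3.00% against 1.76, 2.26 and 2.33%, and only control-diet replicate 1 was far from the rest. His-GTG gave 13.7, 9.23 and 5.01% against 3.89, 4.26 and 3.97%, also without overlap.

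Gly-TCC was trimmed the most, at 39.5, 29.2 and 18.2% on control diet and 14.3, 17.6 and 17.8% on low protein diet. Within it the fragments that lack 2 bases held 7.22, 6.58 and 7.98% against 7.72, 8.30 and 8.18%, while those that lack 1 base were lower in all low-protein libraries, at 30.7, 21.6 and 9.26% against 6.06, 8.22 and 8.78%. Gln-CTG trimmed reads held 4.97, 3.79 and 5.48% of their family against 2.92, 4.53 and 5.02%, and the groups overlapped. Over the 130 shares compared, 35 did not overlap (26.9%), and the adjusted permutation p was 0.371 or higher for all of them.

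**Figure D3:**
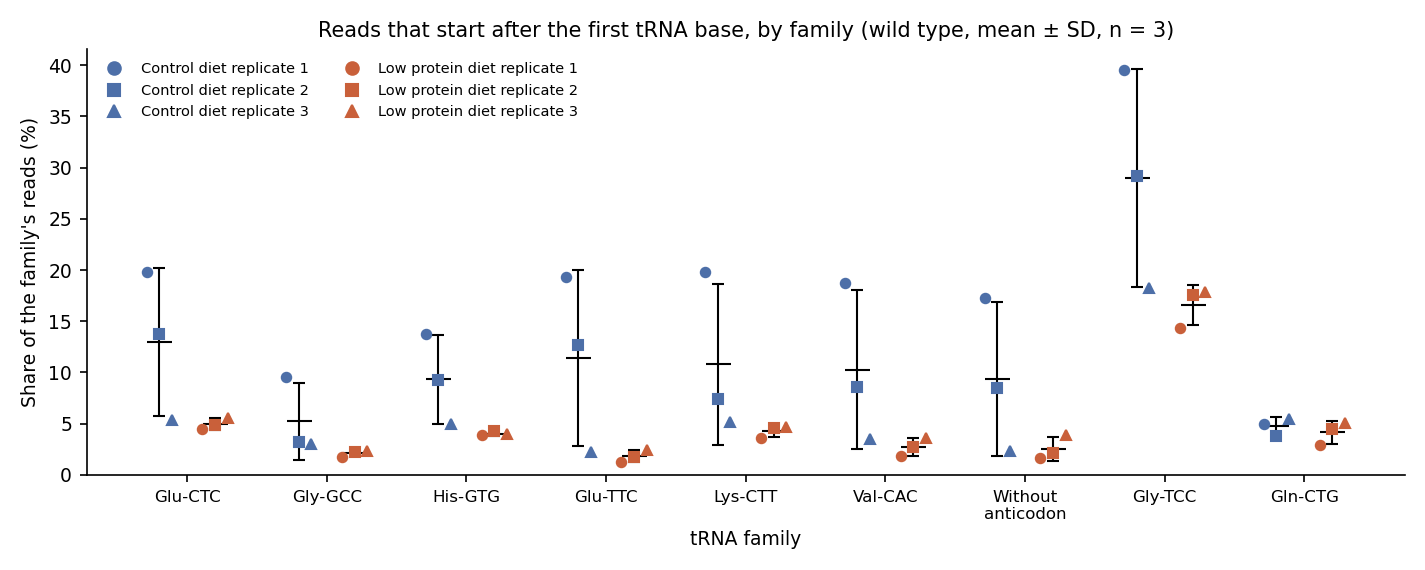
Share of each family's reads (%, axis from 0) that start after the first tRNA base, by wild-type library, with the mean and SD of 3 libraries per diet; the family without a named anticodon is the one that begins GGCTCGTTGG. Control-diet replicate 1 is the highest library in every family except Gln-CTG, where the diets overlap.

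The 10 largest falls were all trimmed fragments, 6 of them of Glu-TTC. They are shown as the largest of the 70 lower calls, with base 2 in capitals where present. Both Glu-TTC fragments to base 30 also have a final A, where the longer forms have G or A after the same bases. The His-GTG fragment has a final T, where the gene copy shown above has G.
Glu-TTC, bases 2 to 31: Cccacatggtctagcggttaggattcctgg
Glu-TTC, bases 2 to 31, second form: Cccatatggtctagcggttaggattcctgg
Glu-TTC, bases 2 to 31, final A: Cccacatggtctagcggttaggattcctga
Glu-TTC, bases 2 to 31, second form, final A: Cccatatggtctagcggttaggattcctga
Glu-TTC, bases 2 to 30: Cccacatggtctagcggttaggattccta
Glu-TTC, bases 2 to 30, second form: Cccatatggtctagcggttaggattccta
Val-CAC, bases 2 to 31: Tttccgtagtgtagtggtcatcacgctcgc
His-GTG, bases 2 to 31: Ccgtgatcgtatagtggttagtactctgct
Gly-GCC, bases 3 to 31, final T: atgggtggttcagtggtagaattctcgt
Gly-GCC, bases 3 to 31, final A: atgggtggttcagtggtagaattctcga

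The most abundant of these, the first Glu-TTC fragment, was at 1154, 1175 and 52.7 RPM in the control libraries and at 21.9, 26.4 and 58.2 RPM in the low-protein ones. Control-diet replicates 1 and 2 were high, while replicate 3 lay within the low-protein range, so the groups overlapped. The fitted log2 difference was −4.48 (SE 0.88, adjusted p = 0.0486 by edgeR), and −0.57 with replicate 3 as the only control library. Its second form was at 743, 599 and 35.8 RPM against 19.3, 19.8 and 27.8 RPM (−4.36, SE 0.88), without overlap, and −0.68 with replicate 3 alone. The Glu-TTC fragment of bases 2 to 31 with a final A was at 130, 125 and 6.63 RPM against 2.19, 2.44 and 5.21 RPM (−4.73, SE 0.91). Its second form was at 97.3, 59.2 and 1.99 RPM against 1.32, 1.04 and 3.91 RPM (−4.68, SE 1.09). With replicate 3 as the only control library their differences were −1.02 and 0.03, and the groups of the last overlapped.

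The other fragments of this group had too few reads on low protein diet for a fold, since their mean there was under 1.36 RPM, the level of 3 counts in the shallowest of the 12 libraries. The Val-CAC fragment was at 27.8, 32.6 and 2.65 RPM in the control libraries and at 0.439, 0.348 and 1.30 RPM in the low-protein ones. The His-GTG fragment was at 21.9, 7.19 and 1.66 RPM against 0.439, 0.348 and 0 RPM. The Gly-GCC fragment with a final T was at 55.5, 27.9 and 6.96 RPM against 0.878, 2.09 and 0.434 RPM, and the one with a final A at 13, 5.07 and 1.33 RPM against 0, 0.348 and 0 RPM. In each of these the groups did not overlap, and control-diet replicate 3 was the lowest control library. The 2 short Glu-TTC fragments, at 53.7, 36.4 and 2.65 RPM and at 27.8, 17.3 and 0.994 RPM on control diet, were at 1.32, 1.74 and 0.434 RPM and at 0.439, 0.348 and 0.434 RPM in the low-protein ones. In all, 18 of the 70 lower sequences had a low-protein mean under this level.

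The abundant trimmed fragments were less different. Of the most abundant one in each of the 5 families shown at the start, only that of Glu-TTC was called, at 1426, 900 and 94.8 RPM in the control libraries and 60.1, 65.8 and 139 RPM in the low-protein ones (log2 fold change −3.20, SE 0.78, adjusted p = 0.0486 by edgeR). The groups overlapped, and with control-diet replicate 3 as the only control library the difference was −0.11. Its complete counterpart was at 4686, 4513 and 3794 RPM against 4650, 3562 and 4551 RPM (−0.03, SE 0.20). The other 4 lay between −2.31 and −0.80 with adjusted p-values from 0.0928 to 0.166, and between −0.41 and −0.03 with replicate 3 alone.

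The most abundant complete fragment of each of these 5 families was not called. The Gly-GCC fragment of bases 1 to 29 was at 83273, 88299 and 119440 RPM against 132918, 131210 and 122583 RPM (log2 fold change 0.41, SE 0.25, adjusted p = 0.37 by edgeR), without overlap. Control-diet replicate 3 was close to the low-protein libraries, and with it alone the difference was 0.11. For Lys-CTT the difference was 0.00 (SE 0.19), for Val-CAC −0.19 (SE 0.31) and for His-GTG −0.59 (SE 0.47). In these 3 families the groups overlapped.

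**Figure D4:**
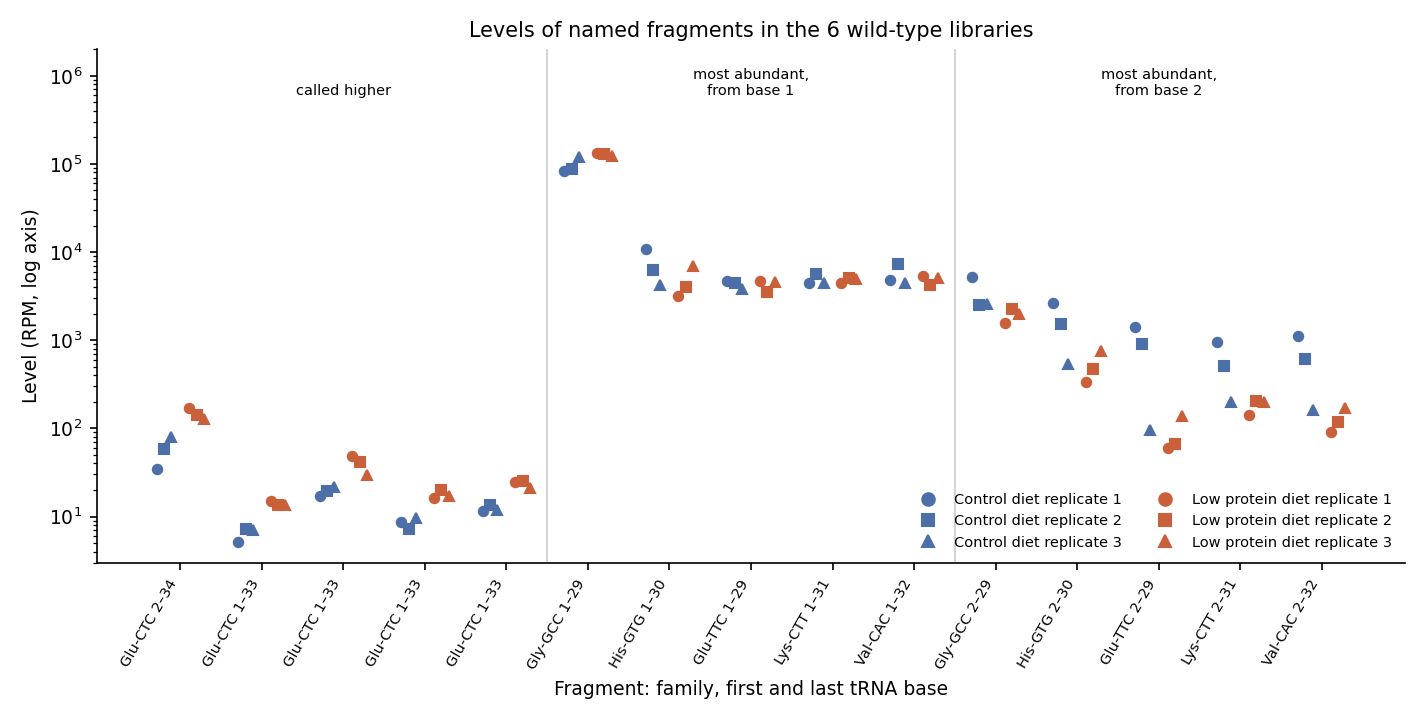
Level (RPM, log axis) of named fragments in each wild-type library; labels give the family and the first and last tRNA base, and no mean is drawn. The most abundant fragments from base 2 spread widely over the control libraries, such as Glu-TTC from 1426 to 94.8 RPM. The fragments called higher, which were picked by that call, have all 3 low-protein libraries above the control ones.

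Among the complete sequences, 7 of 2293 were called lower and 4 higher, beside 70 lower (2.36%) and 5 higher (0.168%) of all 2971. Of the 7 lower ones, 6 were low-abundance Gly-GCC sequences of 30 nt that end at base 31 and differ inside from the abundant form. Examples are shown because they start at base 1, unlike most of the lower calls.
Gly-GCC, bases 1 to 31, first: GCattggtagttcaatggtagaattctcgc
Gly-GCC, bases 1 to 31, second: GCattggtggttcagtggtagaactctcgt
The first was at 45.1, 46.9 and 16.9 RPM in the control libraries and 9.65, 15.7 and 13.5 RPM in the low-protein ones (log2 fold change −1.48, SE 0.35, and −0.38 with replicate 3 as the only control library). The second was at 12.7, 17.8 and 14.9 RPM against 5.70, 6.61 and 5.65 RPM (−1.32, SE 0.30, adjusted p = 0.0486 by edgeR). It was the only lower call in which control-diet replicate 3 was not the lowest control library, and its difference was −1.31 with that replicate alone. The seventh was a His-GTG fragment through base 34, at 45.8, 68.9 and 4.31 RPM against 1.32, 3.13 and 3.47 RPM (−3.87, SE 0.88). Its groups did not overlap, and its difference was −0.68 with replicate 3 alone.

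Each of the 5 sequences that rose was a Glu-CTC fragment reaching base 33 or 34. Base 33 is the last one before the anticodon. Of the 5, 4 are complete and end at base 33. The fifth lacks base 1 and takes in the first base of the anticodon, and it is shown as the most abundant of them.
trimmed form, bases 2 to 34, with base 2 in capitals: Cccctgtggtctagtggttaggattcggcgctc

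The trimmed form was the most abundant of those called, at 34.4, 58.8 and 80.9 RPM in the control libraries and 170, 142 and 129 RPM in the low-protein ones (log2 fold change 1.35, SE 0.32, adjusted p = 0.0486 by edgeR). Of the complete ones, the most abundant was at 17.1, 19.4 and 21.5 RPM against 49.1, 42.1 and 29.5 RPM (1.06, SE 0.25), and the next at 11.5, 13.5 and 11.9 RPM against 24.6, 25.4 and 21.3 RPM (0.95, SE 0.23). The other two were at 8.66, 7.19 and 9.61 RPM against 16.2, 19.8 and 16.9 RPM, and at 5.09, 7.19 and 6.96 RPM against 14.9, 13.6 and 13.5 RPM. In all 5 the lowest low-protein library stood above the highest control library. In the complete ones control-diet replicate 3 was close to the other control libraries. In the trimmed form it was the highest of them, at 80.9 RPM beside 34.4 and 58.8 RPM. With that replicate as the only control library the differences were 0.86 to 1.00, none called.

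The span of these fragments was then examined over the whole family, a choice made after their values were seen. Among the 645 complete Glu-CTC sequences, 102 ended at base 33 or later, and 71 of these had every low-protein library above every control library, 2 the opposite, beside 251 (8.45%) and 326 (11%) of all 2971 sequences. The 102 include the 4 complete sequences called higher, from which the span was chosen, so the count is a description. The median log2 fold change of the 102 was 0.85 with all control libraries, 1.01 without control-diet replicate 3 and 0.55 with it alone, beside 0.15 for all complete Glu-CTC sequences. Their summed level was 16473, 21881 and 26890 RPM in the control libraries and 46964, 35875 and 34554 RPM in the low-protein ones. Of the complete Glu-CTC reads they made up 4.48, 6.01 and 6.17% against 10.7, 8.06 and 8.0% (exact permutation p = 0.1, adjusted p = 0.371 over 130 shares). Control-diet replicate 3 lay with the other control libraries in this share, unlike in the trimmed one. By single end, base 33 held 3.71, 4.64 and 4.45% against 7.64, 5.85 and 5.91%, and base 34, the first of the anticodon, 0.488, 0.780 and 0.912% against 1.71, 1.29 and 1.23%. Extended reads are counted with the complete ones in these shares and in those by 3′ end below.

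In Gly-GCC the diets stood apart at other 3′ ends. Its complete reads ended at base 29 in 39.7, 34.3 and 47.3% on control diet and 48.6, 50.6 and 49.8% on low protein diet, and at base 31 in 23.3, 25.5 and 17.6% against 15.2, 15.1 and 16.5%. Neither overlapped, and control-diet replicate 3 was nearest to the low-protein libraries in both. Reads through the whole anticodon, ending at base 36, made up 0.282, 0.710 and 1.01% against 1.22, 1.39 and 1.27%, also without overlap. The fragment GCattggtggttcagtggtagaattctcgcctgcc, which holds the glycine anticodon at its 3′ end, was at 592, 1880 and 2431 RPM against 3227, 3535 and 3118 RPM (log2 fold change 1.01, SE 0.39, adjusted p = 0.149 by edgeR), and the difference was 0.44 with control-diet replicate 3 alone.

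Lys-CTT reads ended at base 33 in 19.7, 21.4 and 24.2% on control diet and 29.9, 26.5 and 25.1% on low protein diet, without overlap. For ends at base 33 or later together, Lys-CTT, Glu-TTC, Val-CAC and His-GTG overlapped between the diets. Gly-GCC overlapped as well, at 3.12, 3.46 and 4.85% against 4.99, 4.72 and 4.83%. The family that begins GGCTCGTTGG did not, at 36.2, 38.5 and 41.0% against 47.0, 41.5 and 42.8%. The complete and extended reads of all families gave 7.05, 7.36 and 8.54% against 10.3, 8.88 and 9.27%.

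**Figure D5:**
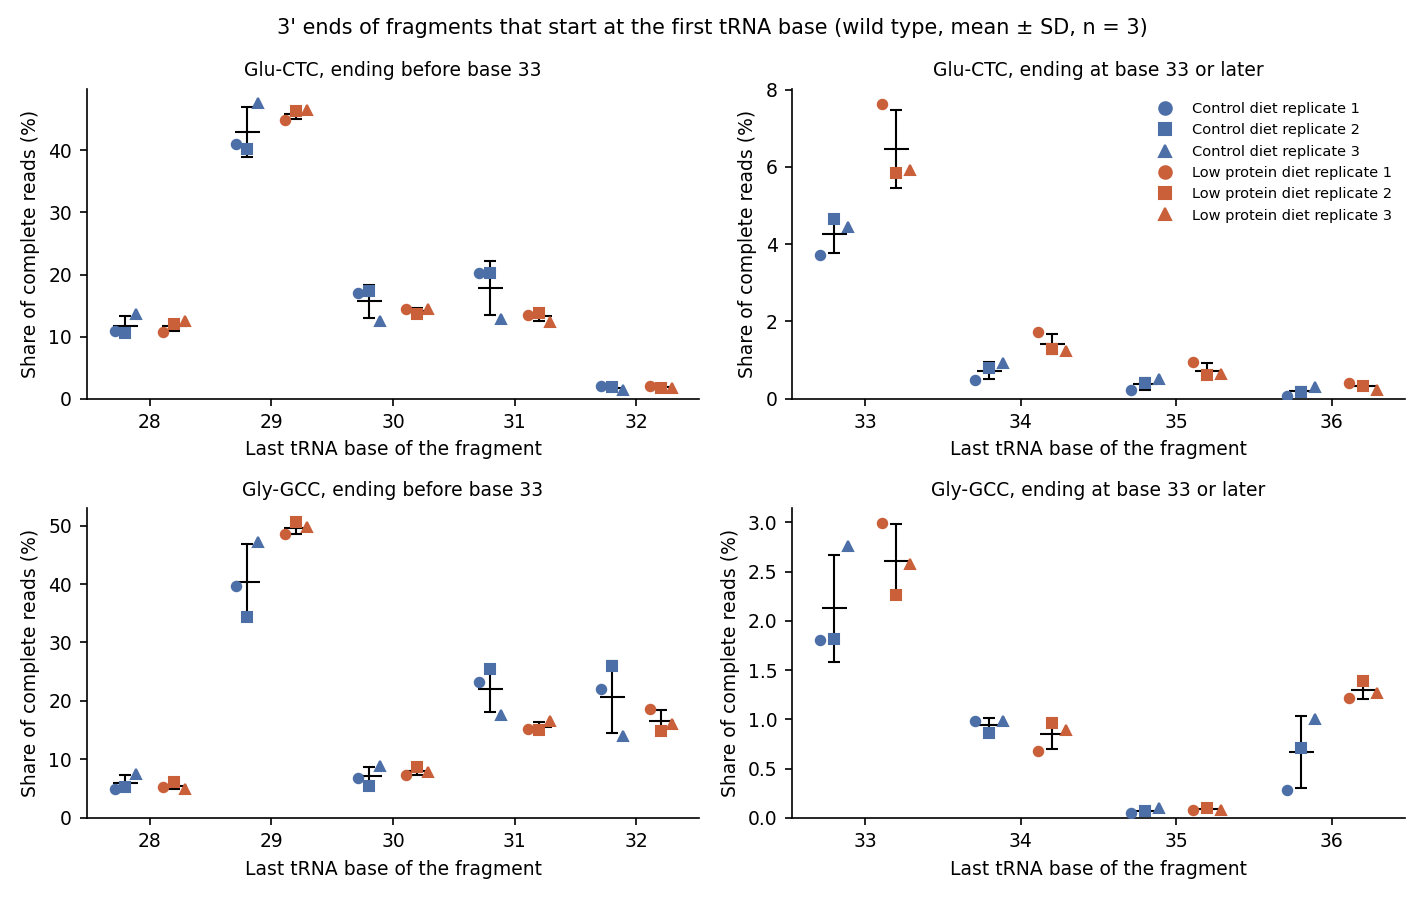
Share of complete reads of Glu-CTC (top) and Gly-GCC (bottom) that end at each tRNA base (%, axes from 0), by wild-type library, with the mean and SD of 3 libraries per diet; ends before base 33 are on the left and later ends on the right. At base 33 of Glu-CTC the low-protein libraries, at 5.85 to 7.64%, lie above the control ones, at 3.71 to 4.64%. Extended reads are counted with the complete ones.

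Within the Glu-CTC fragments that start at base 2, sequences with different first bases had different values, a split also chosen after values were seen. The 89 sequences that begin CCC and go on with another base had a median log2 fold change of −2.36, with 13 called lower, and −0.25 with control-diet replicate 3 as the only control library. Their summed level was 53872, 31113 and 8248 RPM in the control libraries and 4894, 6937 and 8345 RPM in the low-protein ones. The 15 that begin CCCC had a median of 0.13, or 0.06 with that replicate alone, with 1 called higher, and summed to 7882, 8680 and 10106 RPM against 10294, 9952 and 10436 RPM. Over all 2971 sequences the called share was 2.36% lower and 0.168% higher. The CCCC form is a fragment such as Cccctgtggtctagtggttaggattcgg. It was at 3453, 3769 and 5224 RPM against 4907, 4819 and 5220 RPM, and with base 1 in place at 6099, 6607 and 9570 RPM against 8778, 8809 and 9176 RPM. Both overlapped between the diets, and neither was called.

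The libraries differed in the share of histidine fragments that start before base 1, where the extra guanine lies. Whether each of them carries that guanine was not checked. Fragments that start before base 1 made up 24.8, 41.7 and 61.2% of His-GTG reads on control diet and 66.2, 63.4 and 60.6% on low protein diet. Control-diet replicates 1 and 2 were low and replicate 3 lay within the low-protein range, so the groups overlapped (exact permutation p = 0.2). The most abundant extended fragment was at 4800, 5567 and 8587 RPM against 7624, 8777 and 12692 RPM (log2 fold change 0.62, SE 0.27, adjusted p = 0.197 by edgeR). Without the extra base, the same fragment was at 10730, 6289 and 4248 RPM against 3198, 4021 and 6911 RPM. The whole His-GTG family was at 69685, 46137 and 47424 RPM against 34305, 42702 and 59851 RPM, with overlap.

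The family totals sum all fragments of a tRNA. None of the 19 families was called (0%) by edgeR with adjustment over families, and 2 had an unadjusted p under 0.05. Glu-CTC, 46.4% of the mean level, was at 447057 ± 21623 RPM in the control libraries and 461652 ± 5468 RPM in the low-protein ones (SD, n = 3). Gly-GCC, 39.3%, was at 379182 ± 29653 and 391535 ± 14640 RPM, with a log2 fold change of 0.05 (SE 0.15). Both families overlapped between the diets.

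Glu-TTC was at 45359, 45225 and 29301 RPM in the control libraries and 30147, 24594 and 32009 RPM in the low-protein ones (log2 fold change −0.47, SE 0.20, adjusted p = 0.39 by edgeR). Control-diet replicate 3 lay inside the low-protein range, and without that replicate it was called lower (−0.65, adjusted p = 0.0282). The family that begins GACGAGGTGG, of 3 sequences, was then called higher (0.95, adjusted p = 0.0282), at 37.7 and 77.0 RPM against 104, 123 and 102 RPM, with the left-out replicate at 112 RPM. Val-CAC was lower in every low-protein library, at 22395, 23898 and 18353 RPM against 17393, 15894 and 17541 RPM (−0.35, SE 0.19, adjusted p = 0.39, exact permutation p = 0.1). Lys-CTT, Gly-TCC, Gln-CTG and the family that begins GGCTCGTTGG lay between −0.18 and 0.10 and overlapped.

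By amino acid, the valine share of the reads was 2.33, 2.48 and 1.91% on control diet and 1.80, 1.65 and 1.83% on low protein diet, without overlap. The glycine share was 39.0 ± 2.9% against 40.1 ± 1.5%, the glutamate share 49.8 ± 1.9% against 50.0 ± 0.2% and the lysine share 2.72 ± 0.29% against 2.81 ± 0.08% (SD, n = 3). The histidine share was 5.57 ± 1.37% against 4.65 ± 1.33%. All of these 4 overlapped between the diets. By length, reads of 33 to 36 nt held 5.68, 6.15 and 7.26% against 8.87, 7.80 and 8.10%, without overlap, and reads of up to 29 nt and of 30 to 32 nt overlapped. Sequencing reads were 36 bp and no sequence exceeds 36 nt, so longer fragments may be missing or cut at that length.

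Whether the diet difference was particular to wild type was tested as its difference from that in the ATF7+/- males. No sequence and no family was called for this difference by edgeR with Benjamini-Hochberg adjustment. An unadjusted p under 0.05 was found for 292 of the 2971 sequences and 0 of the 19 families. With 3 libraries per group and control-diet libraries this far apart, the lack of calls does not show that the genotypes respond alike.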

How the data were processed

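RNA of sperm was extracted with sperm lysis buffer and Trizol, and NEBNext small RNA libraries were sequenced as 36-bp read pairs on a NextSeq, per the labels' protocols. The deposited table gives raw read counts per unique sequence and normalised values, which are RPM on 1 total per library by the authors. The totals were recovered from the ratio of counts to RPM. The reads were placed on mm10 per the submitters' processing notes, while which aligner, counting program and filters were used is not given in the sources used here. The table gives no sequence names. Each sequence joined a family within 2 edits and an overlap of at least 14 bases, and the first base and the anticodon were placed from the D arm. The family names are rebuilt in this way, and a member may come from a tRNA with another anticodon.

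edgeR 4.0.16 (quasi-likelihood, R 4.3.3) was fitted on counts of all 12 libraries with 4 group means and the authors' totals, two-sided, with a minimum mean of 1 RPM, which removed 0 sequences. The biological coefficient of variation was 0.326. On simulated data it recovered 85% of 4-fold and 99% of 8-fold changes among 2971 sequences, with 6.12% false among those called. The simulated counts were independent draws with the same spread for every sequence and library. The real control libraries spread more than the low-protein ones, so these rates need not hold for the calls made here. Shares were tested with exact two-sided permutation tests. Alternatives were TMM, DESeq2 1.42.0, limma 3.58.1, other filters, the wild-type libraries alone, a replicate block and leaving out libraries. Named are the 10 largest called rises and falls, the 10 most abundant sequences and, in the 6 largest families, the most abundant complete and trimmed ones, of which a few are not reported here. The comparison, the lists and the naming rule were chosen with earlier results of these data known.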

Additional observations from a re-analysis of the deposited data

How the results depend on the processing

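The count of 75 called sequences was 77 with TMM, 75 without a filter and 327 with DESeq2 (54 higher, 273 lower, with all 75 among them). It was 0 with limma at either pseudocount, 0 in the 6 wild-type libraries alone (lowest adjusted p 0.140, 569 unadjusted) and 0 at a minimum of 10 RPM. Leaving out 1 library gave 0 to 577, and with control-diet replicate 3 as the only control library it was 0 (62 unadjusted), an alternative chosen after seeing the data. With the replicate number as a block it was 80 in 12 libraries (59 of the 75 among them) and 0 in the wild-type libraries alone. Same-numbered libraries of the 2 diets deviated from their group means with r of −0.299, −0.108 and −0.233, and differently numbered ones with −0.0455 to 0.305. With 3 libraries per diet, whose deviations from a shared mean are not independent, this cannot decide whether the numbers pair them. No family was called under any alternative except without control-diet replicate 3 (2 families). No share could pass 0.05 with 3 libraries per diet, so their tests say nothing of stability. Leaving out 1 library, the glycine share differed by −0.468 to 2.43 points, glutamate by −0.822 to 1.10 and lysine by −0.0531 to 0.235. With the replicate block the trimmed share differed by −5.95 points (exact sign-flip p = 0.25, the smallest possible). TMM moved the median of all sequences by 0.03.

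With control-diet replicate 3 as the only control library, 3 of the 70 called lower sequences lost their negative sign. Of the sequences named, signs turned to 0.0314 for the called Glu-TTC fragment of bases 2 to 31 (second form, final A), −0.127 and 0.267 for Gly-GCC to bases 30 and 32, 0.149 for His-GTG, 0.165 for Glu-TTC, 0.121 for Val-CAC, and −0.0685 and −0.101 for the CCCC forms. For family totals they were −0.0932 for Lys-CTT, −0.146 for GGCTCGTTGG, 0.0489 for Gly-TCC and −0.372 for Gln-CTG. With TMM, complete Glu-TTC was at 0.00817, the Gly-GCC family at −0.00194 and the GGCTCGTTGG family at −0.0026, and with DESeq2 complete Glu-TTC was at 0.0274. Leaving out 1 library moved complete Glu-TTC from −0.112 to 0.0872, Lys-CTT from −0.0537 to 0.117, Val-CAC from −0.321 to 0.0683 and Gly-GCC to base 32 from −0.272 to 0.141. It moved the families Gly-GCC from −0.0137 to 0.0970, Lys-CTT from −0.0239 to 0.133, GGCTCGTTGG from −0.0600 to 0.145, Gly-TCC from −0.279 to 0.0134 and Gln-CTG from −0.041 to 0.419. The cause was not tested.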
